A study of Arabidopsis thaliana with 27 samples.

Results

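The 9 genes described here encode ion channels and regulators of guard cells, the paired cells that open and close each stomatal pore. They were taken from the deposited table by gene ID, 9 of 34262 genes, and all 9 carried enough reads to be tested among 20887 genes. They are the potassium channel genes *KAT1*, *KAT2* and *GORK*, the anion channel genes *SLAC1* and *ALMT12*, the kinase genes *OST1*, *HT1* and *BLUS1*, and the transcription factor gene *MYB60*. Messenger RNA of whole 7-day-old *Arabidopsis thaliana* seedlings was sequenced in 27 libraries, 3 for each of 9 groups, and each library came from its own pool of seedlings. The 3 genotypes were *pif457*, in which the alleles *pif4-101*, *pif5-3* and *pif7-1* are combined, *hfr1-101*, and the wild type Col-0, which carries none of these alleles. The 3 light conditions were HRFR, white light with a high ratio of red to far-red light, and LRFR for 1 h or 25 h, in which far-red light was added to mimic neighbouring plants. All seedlings were collected at the same age and time of day, so the groups of 1 genotype differ in the length of LRFR.

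Guard cells open the pore by taking up potassium, which enters through inward channels such as KAT1 and KAT2 once proton pumps have charged the membrane, and they close it by releasing anions through SLAC1 and ALMT12 and potassium through GORK. Abscisic acid closes the pore by way of the kinase OST1, which activates SLAC1. Blue light opens it through phototropins and BLUS1, while HT1 holds back the response to carbon dioxide. *KAT1* and *KAT2* are also known as auxin-responsive genes of seedlings. PIF4, PIF5 and PIF7 are bHLH factors that phytochrome B restrains in HRFR and that bind the G-box and the related PBE-box, and HFR1 is an HLH protein that binds PIFs and keeps them from DNA.

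Since the PIFs bind these short motifs, the upstream regions of the 9 genes were searched for the G-box, CACGTG, and the PBE-box, CACATG or CATGTG, on both strands, in the TAIR10.1 reference genome. In the 1000 bases before the annotated gene start, *KAT1* held 2 G-boxes and *KAT2* held 1, and none was found there in the other 7 genes. For comparison, 14.8% of 27443 protein-coding genes hold at least 1 G-box in such a window and 2.67% hold 2 or more. A PBE-box stood in the same window of *KAT1*, *ALMT12*, *OST1* and *BLUS1*, and in 37.7% of all. The count of G-boxes depended on the window. In 3000 bases *KAT2* held 3, *KAT1* 2, *HT1* 2, *ALMT12* 1 and *BLUS1* 1, and 31.7% of all genes held at least 1. The shade marker genes *ATHB2* and *PIL1* held 0 in 1000 bases, and 2 and 3 in 3000 bases. *KAT1* and *KAT2* code for closely related channels, with a G-box at a similar distance and, as given below, unlike transcript levels under LRFR. For that reason the 250 bases are shown that carry the G-boxes of *KAT1* (TAIR10.1 chr5:18747597-18747846, minus strand) and the nearest G-box of *KAT2* (chr4:10114354-10114603, plus strand). Both run from base 440 to base 191 before the gene start, and capitals mark the G-boxes, at 386 and 216 bases before the start of *KAT1* and 235 bases before that of *KAT2*, and 1 PBE-box of *KAT1*, at 403 bases.
KAT1: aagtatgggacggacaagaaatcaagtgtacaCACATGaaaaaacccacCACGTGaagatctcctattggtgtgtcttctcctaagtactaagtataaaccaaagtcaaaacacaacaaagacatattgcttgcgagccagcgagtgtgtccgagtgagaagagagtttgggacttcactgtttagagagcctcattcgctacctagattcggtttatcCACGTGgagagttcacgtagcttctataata
KAT2: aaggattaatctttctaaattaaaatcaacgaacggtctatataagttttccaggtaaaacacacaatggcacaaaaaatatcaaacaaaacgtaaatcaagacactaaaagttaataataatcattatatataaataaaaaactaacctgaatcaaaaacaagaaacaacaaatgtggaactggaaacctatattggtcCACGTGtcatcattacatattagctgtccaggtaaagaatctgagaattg
A match of letters is a description of the sequence and was not tested as a binding site. The *KAT1* stretch overlaps the annotated long noncoding RNA gene AT5G06785 on the plus strand (chromosome 5, 18747608 to 18747881).

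Reads in genes ranged from 24.9 to 34.9 M per library (median 28.1 M). Levels are given as CPM, read counts scaled to a common library total with TMM factors, and each log2 fold change (log2FC) comes with its standard error (SE). Replicate 1 of Col-0 in HRFR and replicate 1 of Col-0 at LRFR 25 h lay far from the rest, at -31.4 and -37.7 on the leading principal component of the residuals around the group means, while the other libraries lay between -16.0 and 23.0. Transcripts of the mutated genes were lower in *pif457* than in Col-0, with *PIF7* at 3.24 ± 0.546 against 51.0 ± 2.26 CPM, *PIF5* at 12.8 ± 1.19 against 156 ± 9.62 CPM and *PIF4* at 50.7 ± 0.0256 against 104 ± 2.39 CPM in HRFR (SD, n = 3). *HFR1* transcripts were not lower in the libraries labelled *hfr1-101*, at 19.8 ± 0.408 CPM against 15.6 ± 2.47 CPM in Col-0 HRFR, so the transcript level does not check that label. Beside the 9 genes, no marker of other cell types was at 0 in any group, since whole seedlings hold all tissues, and fewer cells of a type and less RNA per cell cannot be told apart.

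*KAT1* was the gene that moved. After 1 h of LRFR it was about 5-fold higher in *hfr1-101* and in Col-0, and after 25 h about 2-fold higher, while in *pif457* neither change passed the test. In *pif457* libraries *KAT1* (AT5G46240, chromosome 5, 18743510 to 18747406, minus strand, TAIR10.1) stood at 13.6, 12.5 and 12.8 CPM in HRFR, 15.1, 15.5 and 14.5 CPM at LRFR 1 h, and 18.4, 15.8 and 16.8 CPM at LRFR 25 h. In the libraries labelled *hfr1-101* it stood at 32.7, 34.9 and 34.8 CPM in HRFR, 149, 191 and 214 CPM at 1 h, and 81.4, 61.6 and 83.5 CPM at 25 h. In Col-0 it stood at 24.0, 27.8 and 28.1 CPM in HRFR, 117, 124 and 161 CPM at 1 h, and 58.7, 45.7 and 56.3 CPM at 25 h. Within Col-0 and within *hfr1-101* the 3 light conditions did not overlap, with 1 h the highest and HRFR the lowest. In Col-0, all libraries at 1 h lay above HRFR for 6.46% of all genes. All at 25 h lay above HRFR for 9.71% and below 1 h for 10.5%. In *hfr1-101* these 3 shares were 9.71%, 20.1% and 18.9%. The highest *pif457* library of any light condition, at 18.4 CPM, lay below the lowest Col-0 library, at 24.0 CPM. Within a light condition, all *pif457* libraries lay below Col-0 for 12.3% of all genes in HRFR, 9.47% at 1 h and 11.8% at 25 h.

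**Figure D1:**
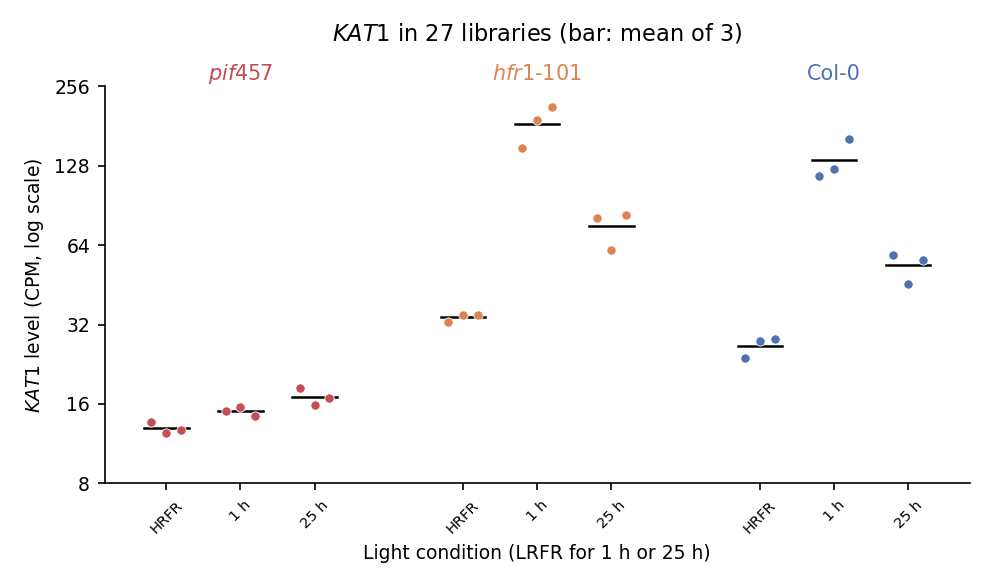
Level of *KAT1* in CPM, on a log scale, in the 27 libraries (points) and as the mean of each group (bars), by genotype and light condition. In *hfr1-101* and Col-0 the 3 libraries at LRFR 1 h reach 117 CPM or more, and in *pif457* no library exceeds 18.4 CPM.

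In Col-0, *KAT1* was 5.04-fold higher at LRFR 1 h than in HRFR (log2FC 2.33, SE 0.13, edgeR adjusted p = 5.31e-12) and 2.01-fold higher at LRFR 25 h (log2FC 1.01, SE 0.13, edgeR adjusted p = 7.94e-06). Between the times it fell by 1.32 on the log2 scale (SE 0.13, edgeR adjusted p = 9.02e-08). Of all genes tested, the percentages called between light conditions were 2.11% at 1 h, 4.04% at 25 h and 5.02% between the times, with a call made at adjusted p below 0.05 and an absolute log2FC above 0.6. In each of these comparisons 1 of the 9 genes was called, *KAT1*. Without the 2 Col-0 libraries that stood apart, a choice made after seeing the data, its log2FC was 2.26 at 1 h, 0.88 at 25 h and -1.38 between the times, and all 3 calls held.

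The libraries labelled *hfr1-101* gave values close to these. *KAT1* was 5.41-fold higher at LRFR 1 h (a log2FC of 2.44, SE 0.13, edgeR adjusted p = 1.82e-12) and 2.21-fold higher at LRFR 25 h (log2FC 1.15, SE 0.13, edgeR adjusted p = 6.74e-07), and it was lower at 25 h than at 1 h (log2FC -1.29, SE 0.13, edgeR adjusted p = 8.77e-08). Again 1 of 9 genes was called in each comparison, where 2.50% of all genes were called at 1 h, 6.61% at 25 h and 7.06% between the times. The response of *hfr1-101* differed from that of Col-0 by 0.10 at 1 h (95% interval -0.27 to 0.48) and by 0.13 at 25 h (-0.25 to 0.52), and neither difference passed (edgeR adjusted p = 1.00 and 0.908). None of the 9 genes was called in these interactions, and none reached an unadjusted p below 0.05 or was called by DESeq2. Of all genes, 0% were called by edgeR in either, with 2.46% and 5.65% below an unadjusted p of 0.05, and DESeq2 called 4 genes at 1 h and 7 at 25 h.

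In *pif457* the same treatment left *KAT1* at a log2FC of 0.21 at 1 h (95% interval -0.09 to 0.51, edgeR adjusted p = 0.949) and 0.39 at 25 h (0.09 to 0.69, edgeR adjusted p = 0.202). The libraries at 1 h and at 25 h all lay above those in HRFR, as did those of 9.07% and 13% of all genes. None of the 9 genes was called within *pif457*, where 0.148% of all genes were called at 1 h, 0.919% at 25 h and 1.33% between the times. At an unadjusted p below 0.05 the count of members was 0 at 1 h, 1 at 25 h (*KAT1*) and 1 between the times (*BLUS1*), where 5.93%, 12.5% and 17.1% of all genes were below it, and DESeq2 called none of the 9. Tested directly, the response of *KAT1* at 1 h was smaller in *pif457* than in Col-0, with a difference of -2.12 log2 units (SE 0.20, edgeR adjusted p = 1.94e-07). *KAT1* was the 1 member called in this interaction, in which 2.04% of all genes were called. Below an unadjusted p of 0.05 lay 4 of the 9, *KAT1*, *MYB60*, *SLAC1* and *ALMT12*, and 9.73% of all genes. At 25 h the difference in response was -0.62 (SE 0.19) and did not pass (edgeR adjusted p = 0.248, unadjusted p = 0.00404). No member was called there, by edgeR or by DESeq2, where edgeR called 0.46% of all genes. *KAT1* was the 1 member of 9 below an unadjusted p of 0.05, as were 6.73% of all genes.

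*KAT1* was lower in *pif457* than in Col-0 in every light condition. The log2FC was -1.04 in HRFR (SE 0.14, edgeR adjusted p = 1.64e-04), -3.16 at LRFR 1 h (SE 0.14, edgeR adjusted p = 5.92e-14) and -1.66 at LRFR 25 h (SE 0.14, edgeR adjusted p = 2.43e-08). By edgeR it was the 1 gene of 9 called in each, beside 2.70%, 4.21% and 6.87% of all genes. DESeq2 called *KAT1* too, and with it *MYB60* at LRFR 1 h and *BLUS1* at LRFR 25 h. In these libraries the summed level of 8 stomatal lineage markers was 45.1 to 59.9 CPM in *pif457* against 36.7 to 42.5 CPM in Col-0 at 1 h. At 25 h it was 49.2 to 53.4 against 26.3 to 43.0 CPM. In HRFR the ranges all but met, at 48.4 to 52.8 CPM in *pif457* against 28.7 to 48.4 CPM in Col-0. The Col-0 groups in HRFR and at 25 h each hold 1 of the libraries that stood apart. No marker of that list was at 0 in any group. Of the 8, 1 was called between *pif457* and Col-0, *SPCH*, the bHLH factor that starts the lineage, higher at LRFR 25 h (log2FC 1.01, SE 0.27, edgeR adjusted p = 0.0256). *FAMA*, which sets guard cell fate, averaged 13.2 to 15.4 CPM in the groups of *pif457* and 14.0 to 14.7 CPM in those of Col-0. The part of these markers in the difference of *KAT1* was not tested.

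Between *hfr1-101* and Col-0, *KAT1* was higher by 0.36 in HRFR (SE 0.13, edgeR adjusted p = 0.771), 0.46 at LRFR 1 h (SE 0.12, adjusted p = 0.251) and 0.49 at LRFR 25 h (SE 0.13, adjusted p = 0.150), and none of these passed. The libraries of the 2 genotypes did not overlap in HRFR or at 25 h. All *hfr1-101* libraries were likewise higher for 4.15% and 4.64% of all genes in these conditions. No member was called in the 3 comparisons, in which 0.0814%, 0.177% and 0.254% of all genes were called. In each of them *KAT1* was the 1 member below an unadjusted p of 0.05, where 5.49%, 9.62% and 6.57% of all genes were below it, and DESeq2 called no member. At 25 h same-numbered libraries of the 2 genotypes deviated together, and with the replicate number as a block in a fit of these groups alone the difference of *KAT1* passed (0.48, edgeR adjusted p = 0.0478). A contrast of the mean difference over the 3 light conditions, added after the values of *KAT1* had been seen, gave 0.44 (SE 0.07, edgeR adjusted p = 0.0035), with 0.378% of all genes called and no other member among them.

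Ordered by group mean, *KAT1* ran from 185 ± 32.6 CPM in *hfr1-101* at LRFR 1 h over 134 ± 23.9 CPM in Col-0 at 1 h, 75.5 ± 12.1 CPM in *hfr1-101* at 25 h, 53.6 ± 6.90 CPM in Col-0 at 25 h, 34.1 ± 1.21 CPM in *hfr1-101* in HRFR and 26.6 ± 2.31 CPM in Col-0 in HRFR to *pif457*, with 17.0 ± 1.28 CPM at 25 h, 15.0 ± 0.535 CPM at 1 h and 13.0 ± 0.615 CPM in HRFR (SD, n = 3). The first pair, *hfr1-101* and Col-0 at 1 h, overlapped between libraries. The other neighbours in this order did not overlap, but the order was set by these same means. Not every pair of neighbours was among the comparisons, and several of those compared did not pass. In *pif457* the libraries at 25 h lay above those at 1 h, as did those of 15.1% of all genes. That difference did not pass either (log2FC 0.18, edgeR adjusted p = 0.593).

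The 3 genes with the nearest profile over the 9 groups were *ST2B* (AT5G07000), coding for a sulfotransferase, *PRE1* (AT5G39860), coding for an atypical HLH protein, and AT5G12050. Nearness was the root mean square difference between centred log2 group means, over genes averaging at least 1 CPM. It came to 0.31, 0.32 and 0.33 log2 units. The averages of these 3 genes were taken on the log2 scale and turned back to CPM, unlike the plain means of *KAT1*. *ST2B* averaged 17.2, 108 and 77.3 CPM at LRFR 1 h in *pif457*, *hfr1-101* and Col-0, against 13.6, 26.9 and 22.3 CPM in HRFR. *PRE1* averaged 8.46, 54.0 and 46.8 CPM at LRFR 1 h in these genotypes, against 5.85, 14.4 and 12.5 CPM in HRFR. AT5G12050 averaged 32.8, 273 and 234 CPM at LRFR 1 h, against 15.2, 36.0 and 29.8 CPM in HRFR, and in *pif457* too its mean at 1 h lay above that in HRFR. These genes were picked for their likeness, which is a description.

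**Figure D2:**
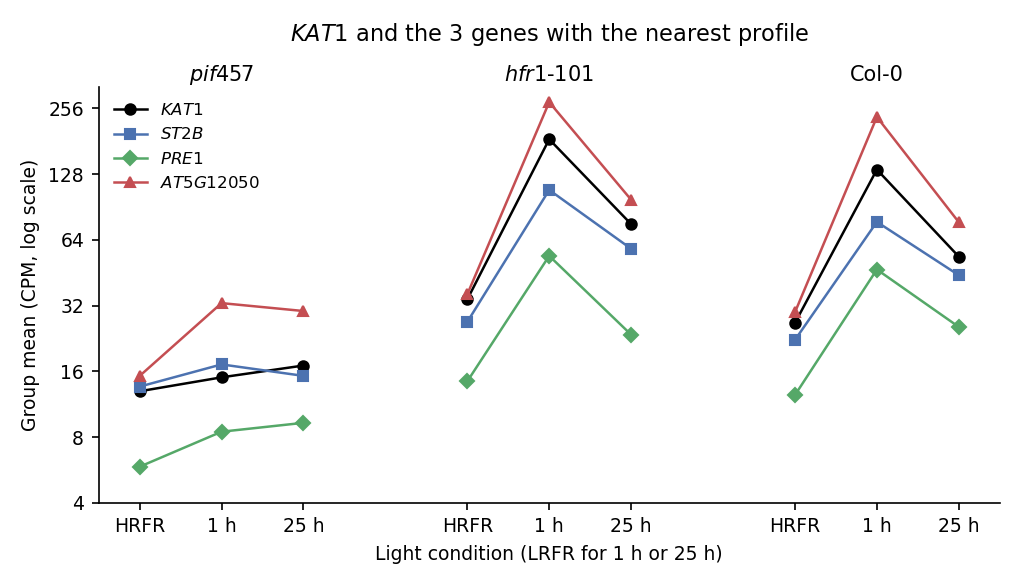
Group means in CPM, on a log scale, of *KAT1* and the 3 genes nearest to it, by genotype and light condition. Means of *KAT1* are plain, and those of the other 3 were taken on the log2 scale. Lines join the 3 conditions of a genotype. In *hfr1-101* and Col-0 all 4 genes are highest at LRFR 1 h, where *KAT1* averages 185 and 134 CPM, and in *pif457* the *KAT1* line is nearly flat, from 13.0 to 17.0 CPM.

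*KAT2*, the nearest relative of *KAT1* among the members, did not follow it. *KAT2* (AT4G18290, chromosome 4, 10114794 to 10118652, plus strand) stood at 7.52, 8.85 and 7.93 CPM in Col-0 at LRFR 1 h, against 4.94, 8.46 and 9.83 CPM in HRFR, and at 4.25, 7.12 and 6.87 CPM at LRFR 25 h. The 2 lowest of its 27 libraries were the Col-0 libraries that stood apart. Its log2FC at 1 h in Col-0 was 0.07 (95% interval -0.36 to 0.50, edgeR adjusted p = 0.936) with them and -0.18 without them, a change of sign between values that both failed to pass. In *pif457* it stood at 8.65, 11.3 and 8.43 CPM at LRFR 1 h, against 8.16, 10.06 and 8.65 CPM in HRFR, and at 7.14, 7.38 and 7.36 CPM at 25 h. Over the 9 light comparisons *KAT2* lay between -0.42 and 0.08 and over the 6 genotype comparisons between -0.33 and 0.27. *GORK* (AT5G37500, chromosome 5, 14889245 to 14895233, minus strand), the outward channel, ranged from 3.64 over a median of 4.60 to 5.52 CPM in the 27 libraries, and its group means spanned 0.26 log2 units. Of the 3 potassium channel genes, 1 changed, and for the other 2 the intervals of all light comparisons lay between -0.86 and 0.50.

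Of the anion channel genes, none passed. *SLAC1* (AT1G12480, chromosome 1, 4257268 to 4259300, minus strand), the slow anion channel, was the weakest of the 9, with 33 to 95 reads per library. It stood at 1.97, 2.02 and 1.41 CPM in Col-0 at LRFR 1 h, against 2.90, 2.81 and 2.43 CPM in HRFR (log2FC -0.58, SE 0.19, edgeR adjusted p = 0.112). In *pif457* it stood at 1.48, 2.43 and 2.92 CPM at LRFR 1 h, against 2.15, 1.70 and 1.67 CPM in HRFR. The Col-0 libraries at 1 h all lay below those in HRFR, as did those of 7.58% of all genes. In *hfr1-101* the conditions overlapped, at 2.10, 2.13 and 2.35 CPM at 1 h against 2.25, 2.46 and 2.37 CPM in HRFR. The log2FC there was -0.11 (edgeR adjusted p = 0.894). The *pif457* libraries overlapped too, and the *pif457* and Col-0 responses differed by 0.88 (SE 0.27, edgeR adjusted p = 0.127). Without *pif457* LRFR 1 h replicate 1 that difference was 1.11 and passed (edgeR adjusted p = 0.0125). The annotation places *SLAC1* over AT1G12470 and the long noncoding RNA gene AT1G04953, both on the other strand, and since the strand setting of the counting is not given in the sources used here, reads of these genes could be counted together or dropped.

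*ALMT12* (AT4G17970, chromosome 4, 9975365 to 9978023, plus strand), the rapid anion channel, ranged from 10.2 over 12.8 to 18.5 CPM. Its libraries at LRFR 1 h in Col-0, at 11.4 to 12.4 CPM, lay below those in HRFR, at 13.2 to 13.8 CPM. The same held for 7.58% of all genes. The log2FC was -0.20 (95% interval -0.42 to 0.02), and it did not pass.

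*MYB60*, coding for an R2R3 MYB factor active in guard cells, had the lowest adjusted p of the members after *KAT1* between light conditions. *MYB60* (AT1G08810, chromosome 1, 2819065 to 2820478, minus strand) stood at 15.3, 13.0 and 14.6 CPM in Col-0 at LRFR 25 h, against 9.01, 11.8 and 11.2 CPM at LRFR 1 h, and in *hfr1-101* at 14.3, 15.0 and 15.6 CPM at 25 h, against 9.81, 11.7 and 10.2 CPM at 1 h. The libraries of the 2 times did not overlap in either genotype. All libraries were likewise higher at 25 h for 11% of all genes in Col-0 and 20.1% in *hfr1-101*. The difference between the times was 0.43 in Col-0 (SE 0.11, edgeR adjusted p = 0.00881) and 0.50 in *hfr1-101* (SE 0.11, edgeR adjusted p = 0.00161), both short of the fold threshold of 0.6. In *pif457* it was -0.05 (edgeR adjusted p = 0.888), with 13.9, 13.0 and 12.9 CPM at 25 h against 14.2, 12.3 and 14.6 CPM at 1 h. At LRFR 1 h *MYB60* was at 0.36 in *pif457* against Col-0 (SE 0.11, edgeR adjusted p = 0.0655), which passed in 4 of 12 other settings, DESeq2 among them (adjusted p = 0.0495). Its response at 1 h differed by 0.51 between these genotypes (SE 0.15), without passing (edgeR adjusted p = 0.106).

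None of the 3 kinase genes was called in any comparison. *OST1* (AT4G33950, chromosome 4, 16271745 to 16274825, plus strand) lay between 17.7 and 25.8 CPM in all 27 libraries (median 21.2), and its group means spanned 0.25 log2 units. *HT1* (AT1G62400, chromosome 1, 23089610 to 23091732, plus strand) lay between 3.78 and 6.39 CPM (median 4.77) and spanned 0.29. *BLUS1* (AT4G14480, chromosome 4, 8329906 to 8331864, minus strand) lay between 7.14 and 12.6 CPM (median 10.11) and spanned 0.42. Between genotypes, *BLUS1* came nearest to a call at LRFR 25 h, at 7.14, 8.56 and 8.66 CPM in *pif457* against 10.3, 10.3 and 10.8 CPM in Col-0. These libraries did not overlap, and 11.8% of all genes likewise had every *pif457* library below those of Col-0. The log2FC of *BLUS1*, -0.37 (SE 0.11), stood at the threshold (edgeR adjusted p = 0.0532). It passed with DESeq2 (adjusted p = 0.0291), with other size factors and with the replicate number as a block. *BLUS1* overlaps AT4G14490 on the same strand, and reads in the shared part may not be assigned to it.

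**Figure D3:**
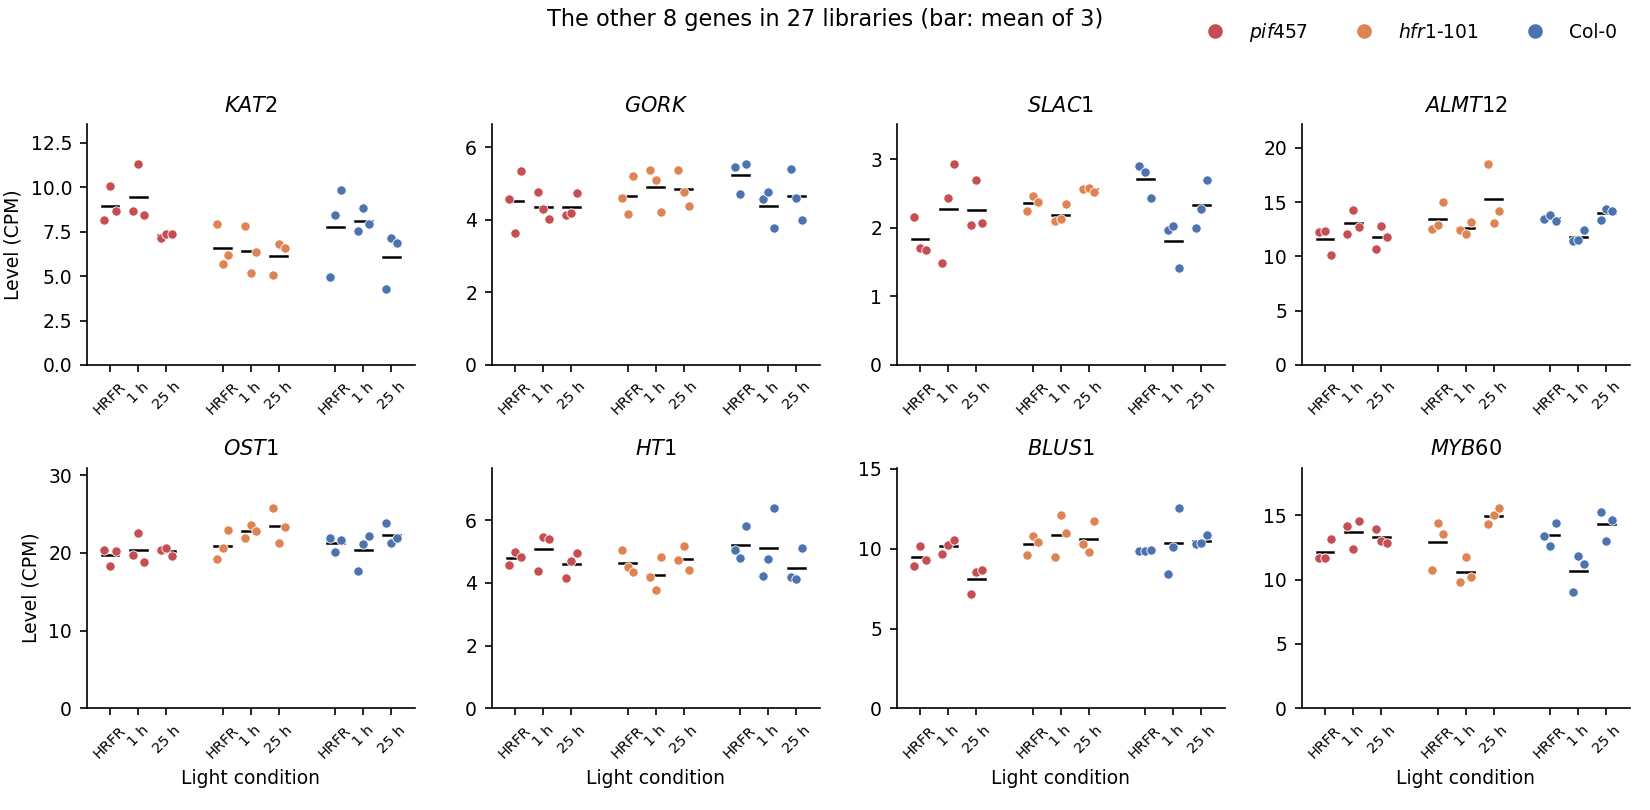
Levels in CPM of the other 8 genes in the 27 libraries (points) and as group means (bars), on linear axes from 0, by genotype and light condition. For most of the genes the groups overlap. *SLAC1* lies under 3 CPM throughout and *OST1* between 17.7 and 25.8 CPM.

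Set side by side, the 8 genes other than *KAT1* gave 72 log2FC between light conditions, from -0.58 (*SLAC1*, Col-0 at 1 h) to 0.50 (*MYB60*, *hfr1-101* at 25 h against 1 h), with 95% intervals reaching from -0.98 to 0.77. None was called by edgeR or DESeq2, and 8 were below an unadjusted p of 0.05. Of all genes, the shares below that p at 1 h, at 25 h and between the times were 5.93%, 12.5% and 17.1% in *pif457*. They were 13.5%, 31.2% and 32.9% in *hfr1-101*, and 13.1%, 22.8% and 25.7% in Col-0. The light comparisons of a genotype share their groups, so the 72 values are not independent. The intervals were widest for *KAT2* and *SLAC1*, for which small changes were not detectable. Their 48 differences between genotypes lay between -0.55 and 0.36, again with none called by edgeR and 4 below an unadjusted p of 0.05. The shares of all genes below it in HRFR, at 1 h and at 25 h were 19.5%, 13.5% and 24.1% for *pif457* and 5.49%, 9.62% and 6.57% for *hfr1-101*. The 8 genes gave 32 interactions, from -0.30 to 0.88, with none called by edgeR and 3 below an unadjusted p of 0.05. These 3, of *MYB60*, *SLAC1* and *ALMT12*, belonged to *pif457* at LRFR 1 h, where 9.73% of all genes were below it. The median log2FC of the 8 genes at LRFR 1 h was 0.09 in *pif457*, -0.07 in *hfr1-101* and -0.13 in Col-0, beside 0.0031, 0.0060 and -0.014 for all genes. At LRFR 1 h in Col-0, 3 of the 8 had all libraries below those in HRFR, *SLAC1*, *ALMT12* and *MYB60*, as did 7.58% of all genes tested. For the same step it was 0 of the 8 in *pif457* and 0 of the 8 in *hfr1-101*, beside 6.45% and 10.6% of all genes. Other comparisons separated as many of the 8. Between *pif457* and Col-0 at LRFR 25 h, 3 had all libraries lower and 1 higher, beside 11.8% and 14.4% of all genes. Between LRFR 25 h and 1 h in Col-0, 1 was lower and 2 higher, beside 10.5% and 11% of all genes.

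**Figure D4:**
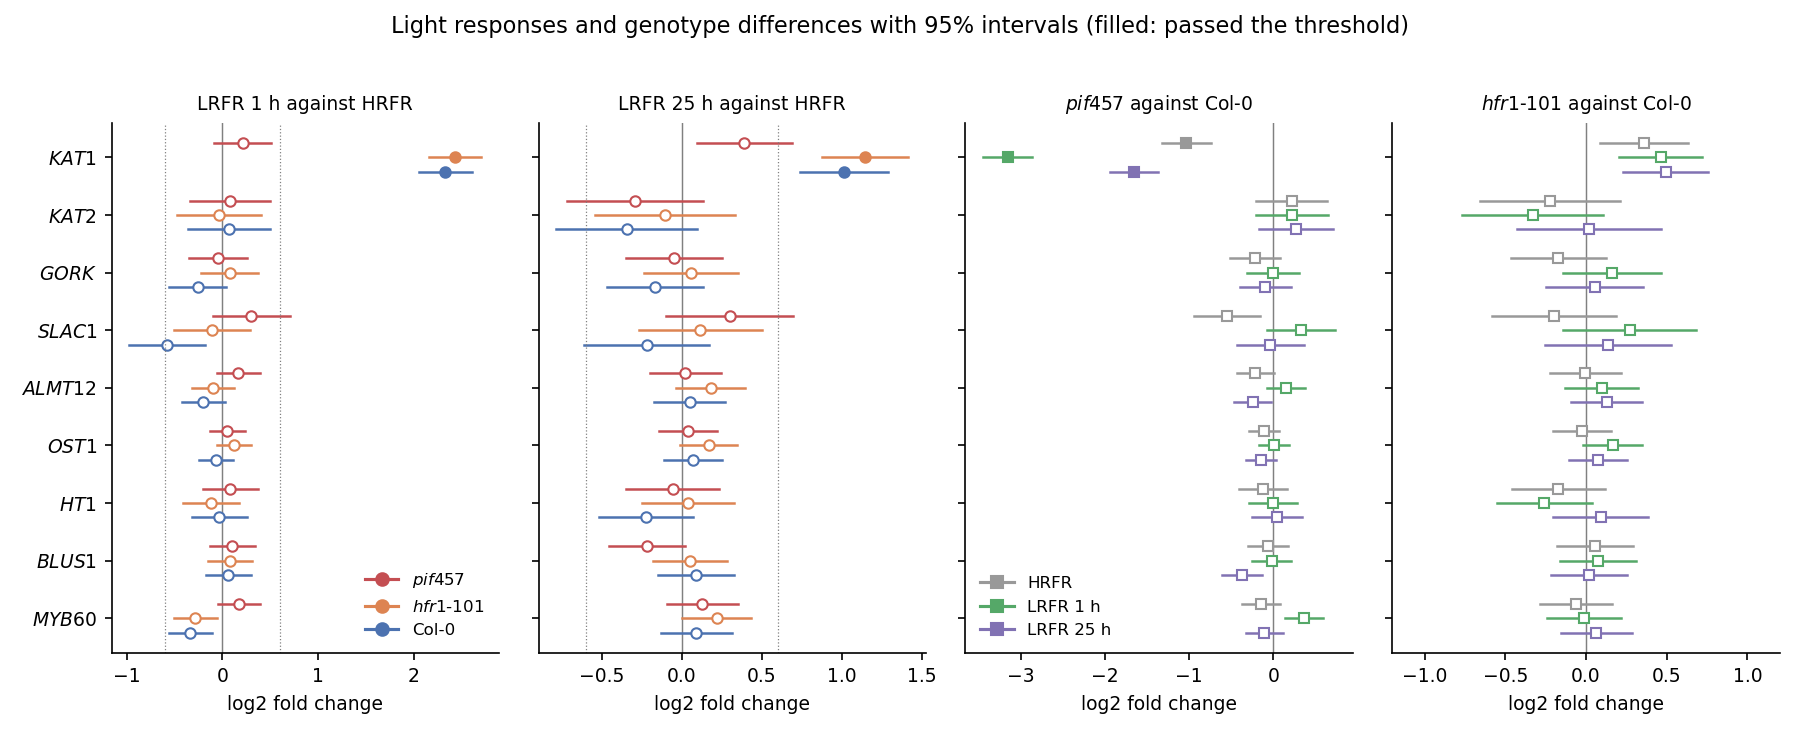
Log2 fold changes of the 9 genes with 95% intervals (lines), for LRFR 1 h and LRFR 25 h against HRFR in each genotype and for each mutant against Col-0 in each light condition; filled symbols passed the test and dotted lines mark 0.6. Filled symbols belong to *KAT1* alone, the farthest at -3.16 for the *pif457* to Col-0 difference at LRFR 1 h, and the other 8 genes lie between -0.58 and 0.36.

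Per length, the mean levels in Col-0 in HRFR were 10.8 CPM per kb for *OST1*, 10.2 for *MYB60*, 8.82 for *KAT1*, 6.43 for *ALMT12*, 5.05 for *BLUS1*, 2.78 for *HT1*, 2.68 for *KAT2*, 1.44 for *SLAC1* and 1.41 for *GORK*. The place of *KAT1* in this order depended on the group, since in HRFR it stood at 4.29 CPM per kb in *pif457*, below *BLUS1* there at 4.83, and at 11.3 in *hfr1-101*, above *OST1* there at 10.6. The ratio of the highest to the lowest of the 27 libraries was 17.2 for *KAT1*. It lay between 1.46 (*OST1*) and 2.65 (*KAT2*) for the others.

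A wider list of 58 guard cell genes, of which 56 could be tested, was read beside the 9 members. *AKT5* and *AKT6*, potassium channel genes, had too few reads. At LRFR 1 h the count called was 0 in *pif457*, 1 in *hfr1-101* and 1 in Col-0. Of all genes, 0.148%, 2.50% and 2.11% were called in these genotypes. The 1 gene was *PYL6*, coding for an abscisic acid receptor, lower in Col-0 (a log2FC of -0.79, SE 0.12, edgeR adjusted p = 8.07e-05) and in *hfr1-101* (-0.70, SE 0.12, edgeR adjusted p = 3.81e-04). At LRFR 25 h 1 was lower in *pif457*, 2 were higher and 7 lower in *hfr1-101*, and 2 were higher and 5 lower in Col-0, beside 0.919%, 6.61% and 4.04% of all genes called in either direction. Medians of the list at 25 h were -0.01, 0.02 and 0.05 in these genotypes.

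Of 21 genes of abscisic acid signalling in guard cells, 1 fell in *pif457*, 4 in *hfr1-101* and 3 in Col-0 at LRFR 25 h, all of them receptor genes, and none rose. Of all genes, 0.421%, 3.26% and 1.66% fell in these genotypes. *PYL6* averaged 5.53 ± 0.393, 2.87 ± 0.434 and 4.63 ± 0.149 CPM at LRFR 25 h in *pif457*, *hfr1-101* and Col-0, against 9.18 ± 0.655, 8.44 ± 0.223 and 9.41 ± 1.71 CPM in HRFR (SD, n = 3). It passed in all 3 genotypes, and at 25 h it was lower in *hfr1-101* than in Col-0 (a log2FC of -0.69, SE 0.13, edgeR adjusted p = 0.0155). *PYL5* and *PYL4* fell in *hfr1-101* (-1.14 and -0.79) and in Col-0 (-0.80 and -0.70), and *PYR1* in *hfr1-101* (-0.69). *SLAH1*, a relative of *SLAC1*, fell too at 25 h, with a log2FC of -0.98 in *hfr1-101* and -0.90 in Col-0, and *SLAH3* fell in *hfr1-101* (-0.72).

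Of the 3 related bHLH genes *AKS1*, *AKS2* and *AKS3*, whose products are known to activate *KAT1*, 1 was higher, 1 lower and 1 not called at LRFR 25 h in Col-0 and in *hfr1-101*. *AKS1* was higher at LRFR 25 h in Col-0, at 33.8 ± 5.64 against 20.3 ± 0.383 CPM in HRFR (log2FC 0.73, SE 0.10, edgeR adjusted p = 1.71e-05), and in *hfr1-101* (log2FC 0.76, edgeR adjusted p = 5.46e-06). *AKS2* was lower there, averaging 10.5 ± 1.52 CPM in Col-0 against 17.0 ± 1.33 CPM in HRFR (a log2FC of -0.69, SE 0.10, edgeR adjusted p = 4.86e-05). At LRFR 1 h, when *KAT1* was highest in Col-0 and *hfr1-101*, none of the 3 was called in any genotype, and the lowest adjusted p was that of *AKS2* in *hfr1-101*, short of the fold threshold (log2FC -0.36, edgeR adjusted p = 0.0374). *AKT2*, a weakly rectifying potassium channel gene also expressed in phloem, averaged 74.3 ± 16.8 CPM at LRFR 25 h against 38.9 ± 3.89 CPM in HRFR in Col-0 (a log2FC of 0.93, SE 0.13, edgeR adjusted p = 1.58e-05). The summed level of 3 phloem markers was 94.5 to 169 CPM at LRFR 25 h and 129 to 202 CPM in HRFR there.

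**Figure D5:**
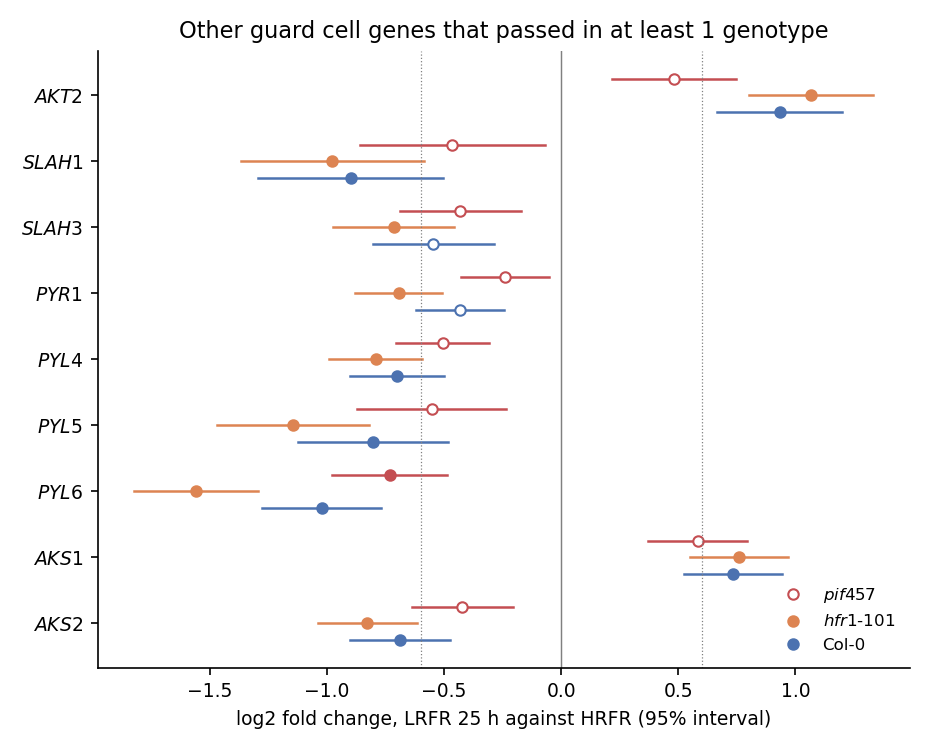
Log2 fold changes at LRFR 25 h against HRFR, with 95% intervals (lines), of the 9 genes of the wider list that passed in at least 1 genotype; filled symbols passed and dotted lines mark 0.6. *AKT2* and *AKS1* lie above 0 and the other 7 below it, farthest *PYL6* in *hfr1-101* at -1.56.

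Between *pif457* and Col-0 the wider list gave 2 lower genes in HRFR, 1 higher and 5 lower at LRFR 1 h, and 1 higher and 7 lower at LRFR 25 h, of 56 tested. Of all genes, 2.70%, 4.21% and 6.87% were called in these conditions, in either direction. *CBC1*, coding for a kinase of the blue light and carbon dioxide responses, was lower in all 3 conditions, at 17.4 ± 1.18 CPM in *pif457* against 29.9 ± 4.97 CPM in Col-0 at 1 h (a log2FC of -0.78, SE 0.09, edgeR adjusted p = 1.34e-06). *PHOT1*, the phototropin gene upstream of BLUS1, averaged 222 ± 1.21 CPM in *pif457* against 335 ± 67.2 CPM in Col-0 at 1 h (a log2FC of -0.60, SE 0.11, edgeR adjusted p = 0.00103) and was lower at 25 h too (log2FC -0.55, edgeR adjusted p = 0.0035). *SKOR*, an outward potassium channel gene of the root stele, was lower at 1 h (a log2FC of -0.63, SE 0.14, edgeR adjusted p = 0.00764), and *AKT2* at 25 h (-0.49, SE 0.13, edgeR adjusted p = 0.0202). *GHR1*, coding for a receptor-like protein that acts on SLAC1, was higher at 25 h (0.37, SE 0.09, edgeR adjusted p = 0.0202).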

How the data were processed

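The deposited values are whole-number counts of reads per gene for 27 libraries. The authors made them from Illumina Stranded mRNA Prep libraries by trimming with Cutadapt, removing ribosomal and low-complexity reads, aligning to TAIR10 with STAR and counting with htseq-count. Tool versions, and whether counting used strand, were not given in the sources used here. The deposited counts are raw. The 5 summary lines of the counter (6.15 to 7.09% of reads) were left out. Reads in genes came to 24.9 to 34.9 M per library, and the common biological coefficient of variation was 0.0943, to which counting error adds for weak genes.

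All 27 libraries entered 1 fit of 9 group means in edgeR 4.0.16 (R 4.3.3), with filterByExpr (20887 genes), TMM factors (0.926 to 1.09) and the quasi-likelihood F-test (18 residual degrees of freedom). P-values were adjusted by Benjamini-Hochberg over all genes of a comparison. Light conditions were compared within a genotype at adjusted p below 0.05 and an absolute log2FC above 0.6, and genotypes and interactions at adjusted p below 0.05, in 19 comparisons. Intervals are 95%. Alternatives were DESeq2 1.42.0, RLE size factors, no filter on low counts, fits of only the groups compared, the replicate number as a block, no fold threshold and each library left out. The tests were checked on simulated data. The p-values measure the spread between libraries, each from its own pool of seedlings.

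Same-numbered libraries deviated together (every r above 0.1) in 3 of 15 comparisons of 2 groups: LRFR 25 h against HRFR in Col-0 (0.635, 0.311 and 0.282), *pif457* against Col-0 in HRFR (0.242, 0.103 and 0.149) and *hfr1-101* against Col-0 at LRFR 25 h (0.459, 0.166 and 0.285). The labels give no more than the number.

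Coordinates and sequences are from RefSeq TAIR10.1, to which 32548 IDs (95.0%) matched, among them all 91 genes of the lists. The genes and lists were chosen with earlier results of these data known. Text names the 9 genes, the mutated genes, called genes of the wider list in order of log2FC, genes on which a statement about a member turns, and, for a member whose group means span over 1 log2 unit (*KAT1* alone), the 3 nearest profiles (pseudocount 0.1 CPM). Plots were made in matplotlib 3.10.9 under Python 3.11.15.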

Additional observations from a re-analysis of the deposited data

Results flagged for a closer look

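The response to LRFR at 1 h differed between *pif457* and Col-0 by the interaction test for 2 genes of all the guard cell lists. They were 1 of the 9 members and 1 of 56 other genes tested, beside 2.04% of all genes. For *KAT1* the difference was -2.121 log2 units (SE 0.20, edgeR adjusted p = 1.94e-07): the 3 *pif457* libraries averaged 15.0 ± 0.535 CPM at LRFR 1 h against 13.0 ± 0.615 CPM in HRFR, and the Col-0 libraries 134 ± 23.9 CPM against 26.6 ± 2.31 CPM (SD, n = 3). Over 18 other settings it lay between -2.21 and -1.99 and passed in each.

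For *CLCA*, coding for the nitrate and proton exchanger of the vacuole, the difference was 0.3853 log2 units (SE 0.09, edgeR adjusted p = 0.0219). *CLCA* averaged 267 ± 9.90 CPM at LRFR 1 h against 245 ± 19.1 CPM in HRFR in *pif457*, and 237 ± 10.8 CPM against 284 ± 19.2 CPM in Col-0. Within genotypes, the log2FC was 0.12 in *pif457* (edgeR adjusted p = 0.859) and -0.26 in Col-0 (edgeR adjusted p = 0.0150), short of the fold threshold of 0.6 in both.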

How the results depend on the processing

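Each of the 171 values (9 genes in 19 comparisons) was recomputed under other settings, 2322 values in 35 settings. No call was lost, no call turned its direction, 2308 values kept their side of the threshold and 14 gained a call. With no fold threshold the count of members called between LRFR 25 h and LRFR 1 h became 2 in Col-0 and 2 in *hfr1-101*, through *MYB60*. For *pif457* against Col-0 at LRFR 1 h it became 2 with DESeq2 and 2 without the Col-0 libraries that stood apart (a choice made after seeing the data), and ranged from 1 to 2 with 1 library left out, again through *MYB60* (adjusted p = 0.0429 without Col-0 LRFR 1 h replicate 2, 0.0488 without *pif457* LRFR 1 h replicate 2). For *pif457* against Col-0 at LRFR 25 h it became 2 with DESeq2, 2 with RLE size factors and 2 with the replicate block, through *BLUS1* (adjusted p = 0.0291, 0.0470 and 0.0224). The interaction of *pif457* at LRFR 1 h gave 1 to 2 members with 1 library left out (*SLAC1*, without *pif457* LRFR 1 h replicate 1). For *hfr1-101* against Col-0 the count ranged from 0 to 1 with 1 library left out, at LRFR 1 h (*KAT1*, 0.61 without Col-0 LRFR 1 h replicate 3 and 0.59 without *hfr1-101* LRFR 1 h replicate 1) and at LRFR 25 h (*KAT1*, 0.62 without *hfr1-101* LRFR 25 h replicate 2). In the fit of only those groups with the replicate block it was 1 at LRFR 25 h. The replicate block changed no other call. The causes of these gains were not tested. Over all genes, DESeq2 called over 1.5 times as many as edgeR in 6 comparisons: 964 against 563 for *pif457* against Col-0 in HRFR, 197 against 96 for the *pif457* interaction at 25 h, 61 against 37 and 89 against 53 for *hfr1-101* against Col-0 at LRFR 1 h and 25 h, and 4 and 7 against 0 for its interactions. The block with groups of the fit alone was chosen after seeing the data, and depth limits *SLAC1* most, with 33 to 95 reads per library.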
